A study of Mus musculus with 8 samples.

Results

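The 9 genes that mark or govern the oligodendrocyte lineage and were followed here across 5 mouse glioblastomas and 3 normal mouse brains are Olig1, Olig2, Sox10, Sox8, Nkx2-2, Gpr17, Cspg4, Neu4 and Lhfpl3. They were taken by name, 9 of 23523 genes in the deposited table, and each library is shown by itself because the tumours differed widely. They were selected on their fragment levels in these same libraries, with the group differences known, so their values are a description with no p-value attached. The glioblastomas came from a lentiviral vector that expressed the activated oncogene HrasG12V together with an shRNA against p53. They were collected at the clinical endpoint, and surrounding normal brain was dissected off the GFP-positive tumour. The brains are labelled as normal mouse brain. The labels name no strain, age or brain region, and do not say that libraries came from separate animals, so p-values measure only the spread between these libraries, which may be technical.

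Oligodendrocytes arise from precursor cells that divide, migrate and later wrap axons in myelin. The transcription factors Olig2, Olig1, Sox10, Sox8 and Nkx2-2 specify these precursors and steer their maturation. The surface proteoglycan encoded by Cspg4, also called NG2, marks precursors, and the receptor encoded by Gpr17 appears for a short time as precursors commit to differentiation. Several of these genes, Olig2 above all, are also commonly expressed in human gliomas.

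The libraries held between 5490351 and 15564280 fragments in the tumours and between 6315241 and 7719196 in the brains, and tumour 4 was the deepest. Levels are given as CPM, fragment counts scaled to a common library size with TMM factors, and 95% counting intervals are exact Poisson intervals, which cover counting error only. Hras, the oncogene of the vector, stood between 327 and 479 CPM in the tumours and between 94.2 and 103 CPM in the brains (log2 fold change 2.05 ± 0.19, SE; edgeR adjusted p = 1.9e-05), and vector and endogenous fragments cannot be separated. Trp53, the hairpin target, stood between 2.74 and 5.92 CPM in the tumours and between 4.74 and 7.21 CPM in the brains (log2 fold change -0.46 ± 0.35, SE; edgeR adjusted p = 0.262). The 12 neuronal markers summed to between 577 and 1048 CPM in the tumours, against between 8525 and 9713 CPM in the brains. The samples are pieces of tissue, so fewer cells of a type and less RNA per cell cannot be told apart in any value below.

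The genes fell into those whose tumours lay on both sides of the brains and those that lay below the brains in every tumour. Promoter sequences are shown for 2 genes of the first kind, Olig2 and Lhfpl3, whose levels moved together across the libraries, and for Sox8, a gene of the second kind. RefSeq entries on GRCm38.p6 matched 6 of the 9 genes, and each covers the 250 bases before to the 50 bases after a gene start. Olig2 lies at chr16:91225300-91225599 on the plus strand, Lhfpl3 at chr5:22745804-22746103 on the plus strand and Sox8 at chr17:25570637-25570936 on the minus strand. Capitals mark matches to 4 motifs. The E-box CAGATG, which reads CATCTG on the other strand, and the E-box CAGCTG, the same on both strands, can be bound by bHLH factors such as Olig2. The motif ACAAAG, which reads CTTTGT on the other strand, and the related motif ACAATG, which reads CATTGT on the other strand, can be bound by Sox factors. All were searched on both strands.
Olig2: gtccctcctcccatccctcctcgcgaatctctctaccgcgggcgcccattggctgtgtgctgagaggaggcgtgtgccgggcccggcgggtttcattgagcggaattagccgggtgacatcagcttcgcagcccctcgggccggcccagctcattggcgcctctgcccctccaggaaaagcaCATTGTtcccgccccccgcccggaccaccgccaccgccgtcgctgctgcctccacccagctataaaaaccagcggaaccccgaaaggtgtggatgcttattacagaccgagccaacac
Lhfpl3: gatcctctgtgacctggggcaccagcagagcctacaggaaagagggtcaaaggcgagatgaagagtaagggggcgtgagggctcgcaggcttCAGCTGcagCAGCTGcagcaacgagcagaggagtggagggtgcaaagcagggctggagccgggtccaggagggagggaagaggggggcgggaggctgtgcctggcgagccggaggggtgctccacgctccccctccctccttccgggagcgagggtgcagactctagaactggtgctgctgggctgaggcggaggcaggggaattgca
Sox8: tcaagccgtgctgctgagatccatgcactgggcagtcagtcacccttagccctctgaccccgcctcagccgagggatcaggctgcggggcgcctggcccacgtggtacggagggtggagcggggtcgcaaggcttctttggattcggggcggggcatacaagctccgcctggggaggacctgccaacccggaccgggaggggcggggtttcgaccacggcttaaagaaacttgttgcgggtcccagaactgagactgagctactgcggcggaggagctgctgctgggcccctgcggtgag
The Lhfpl3 promoter held 2 matches to CAGCTG and the Olig2 promoter held 1 to CATTGT, while none of these letters were found in the Sox8 window. Of the promoters not shown, that of Nkx2-2 held 1 match to CATCTG. Those of Cspg4, a gene of the first kind, and Neu4, of the second, held none. CAGCTG occurred in 16.3% of 32851 mouse promoters of the same length, CAGATG or CATCTG in 17.2%, ACAAAG or CTTTGT in 18.7% and ACAATG or CATTGT in 12.6%. The matches are letters in a window and describe neither a bound site nor a cause.

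Olig1 and Olig2, paired bHLH factors of which Olig2 is required to specify oligodendrocytes, were high in tumours 4 and 1 and low in the other 3. Olig1 stood at 93.1, 5.59, 4.16, 266 and 5.98 CPM in tumours 1 to 5, against 67.8, 45.0 and 43.1 CPM in brains 1 to 3. Tumours 1 and 4 lay above every brain and tumours 2, 3 and 5 below every brain, so that the groups overlapped. Olig2 stood at 24.7, 1.08, 0.504, 58.2 and 1.70 CPM in tumours 1 to 5, against 12.2, 6.35 and 8.72 CPM in brains 1 to 3. The same 2 tumours lay above the brains and the same 3 below. Tumour 4 held 1000 Olig2 fragments and tumour 3 held 4, a level ratio of 116 (95% counting interval 45.0 to 425). For Olig1 the ratio of tumour 4 to tumour 3 was 64.1 (95% counting interval 45.5 to 93.2), against 1.57 between the highest and the lowest brain.

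With such a spread the group difference is not resolved. The log2 fold change of glioblastoma over brain was 0.54 ± 1.31 for Olig1 (SE; 95% interval -2.44 to 3.52) and 0.95 ± 1.34 for Olig2 (95% interval -2.11 to 4.004). Without tumour 4 these became -0.94 and -0.39. On log2(FPKM + 1), where each tumour counts equally on the log scale, they were -1.09 and -0.29, so the sign turned in both settings.

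Sox10, the SoxE factor present throughout the lineage and a direct activator of myelin genes, had the same division of tumours. It stood at 47.6, 2.16, 2.39, 104 and 6.06 CPM in tumours 1 to 5, against 23.2, 13.6 and 12.8 CPM in brains 1 to 3. Tumours 1 and 4 lay above the brains and the others below. Its log2 fold change was 0.99 ± 1.22 (SE; 95% interval -1.78 to 3.77), or -0.18 without tumour 4 and -0.21 on log2(FPKM + 1).

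Lhfpl3, a membrane protein gene of the LHFPL family that is strongly expressed in precursors, had the largest SD of log2 CPM among the tumours of the 9, 2.98. It stood at 132, 3.97, 3.53, 342 and 10.7 CPM in tumours 1 to 5, against 33.2, 31.3 and 45.3 CPM in brains 1 to 3. Tumour 4 exceeded tumour 3 by a ratio of 96.9 (95% counting interval 67.0 to 146). Its log2 fold change was 1.43 ± 1.43 (SE; 95% interval -1.81 to 4.68), or 0.04 without tumour 4 and -0.35 on log2(FPKM + 1). Lhfpl3 has 2 transcript accessions, and the deposited estimates assigned 59.4 fragments to one of them in brain 1 and in brain 3 but 0.00861 in brain 2 and at most 0.0512 in any tumour. These shares rest on how fragments were divided between accessions.

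Cspg4, which is also expressed by pericytes, varied less. It stood at 30.2, 6.13, 8.70, 60.3 and 16.2 CPM in tumours 1 to 5, against 12.9, 11.1 and 12.1 CPM in brains 1 to 3. Tumours 1, 4 and 5 lay above the brains and tumours 2 and 3 below. The log2 fold change was 1.03 ± 0.70 (SE; 95% interval -0.56 to 2.61), or 0.36 without tumour 4. Of 10 pericyte and smooth muscle markers, 6 were higher and 2 lower, none was at 0 throughout a group, and their summed level ran from 214 to 869 CPM in the tumours and from 162 to 185 CPM in the brains. That sum was lowest in tumour 4, the tumour with the highest Cspg4, but it leaned on Acta2, at 657 CPM in tumour 3 and 13.6 CPM in tumour 4. Single markers differed, since Pdgfrb was lowest in tumour 4 (28.1 CPM) and Kcnj8 was highest there (8.33 CPM). The part of these cells in the Cspg4 values was not tested.

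Nkx2-2, a homeodomain factor that times differentiation, was the least abundant of the 9 in the brains. It stood at 1.55, 0.180, 2.14, 5.77 and 0.566 CPM in tumours 1 to 5, against 1.86, 0.577 and 0.682 CPM in brains 1 to 3. The brains held 20 fragments in all and tumour 2 held 1, so only tumour 4, with 99 fragments, had a counting interval (4.69 to 7.02 CPM) above those of all 3 brains. The log2 fold change was 1.06 ± 0.96 (SE; 95% interval -1.12 to 3.24), or 0.14 without tumour 4. In the RefSeq table of GRCm38 the gene overlaps Nkx2-2os, which stood between 0.180 and 1.98 CPM in the tumours and between 0.954 and 1.52 CPM in the brains. No strand setting of the counting is stated, so fragments of the pair may be mixed.

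**Figure D1:**
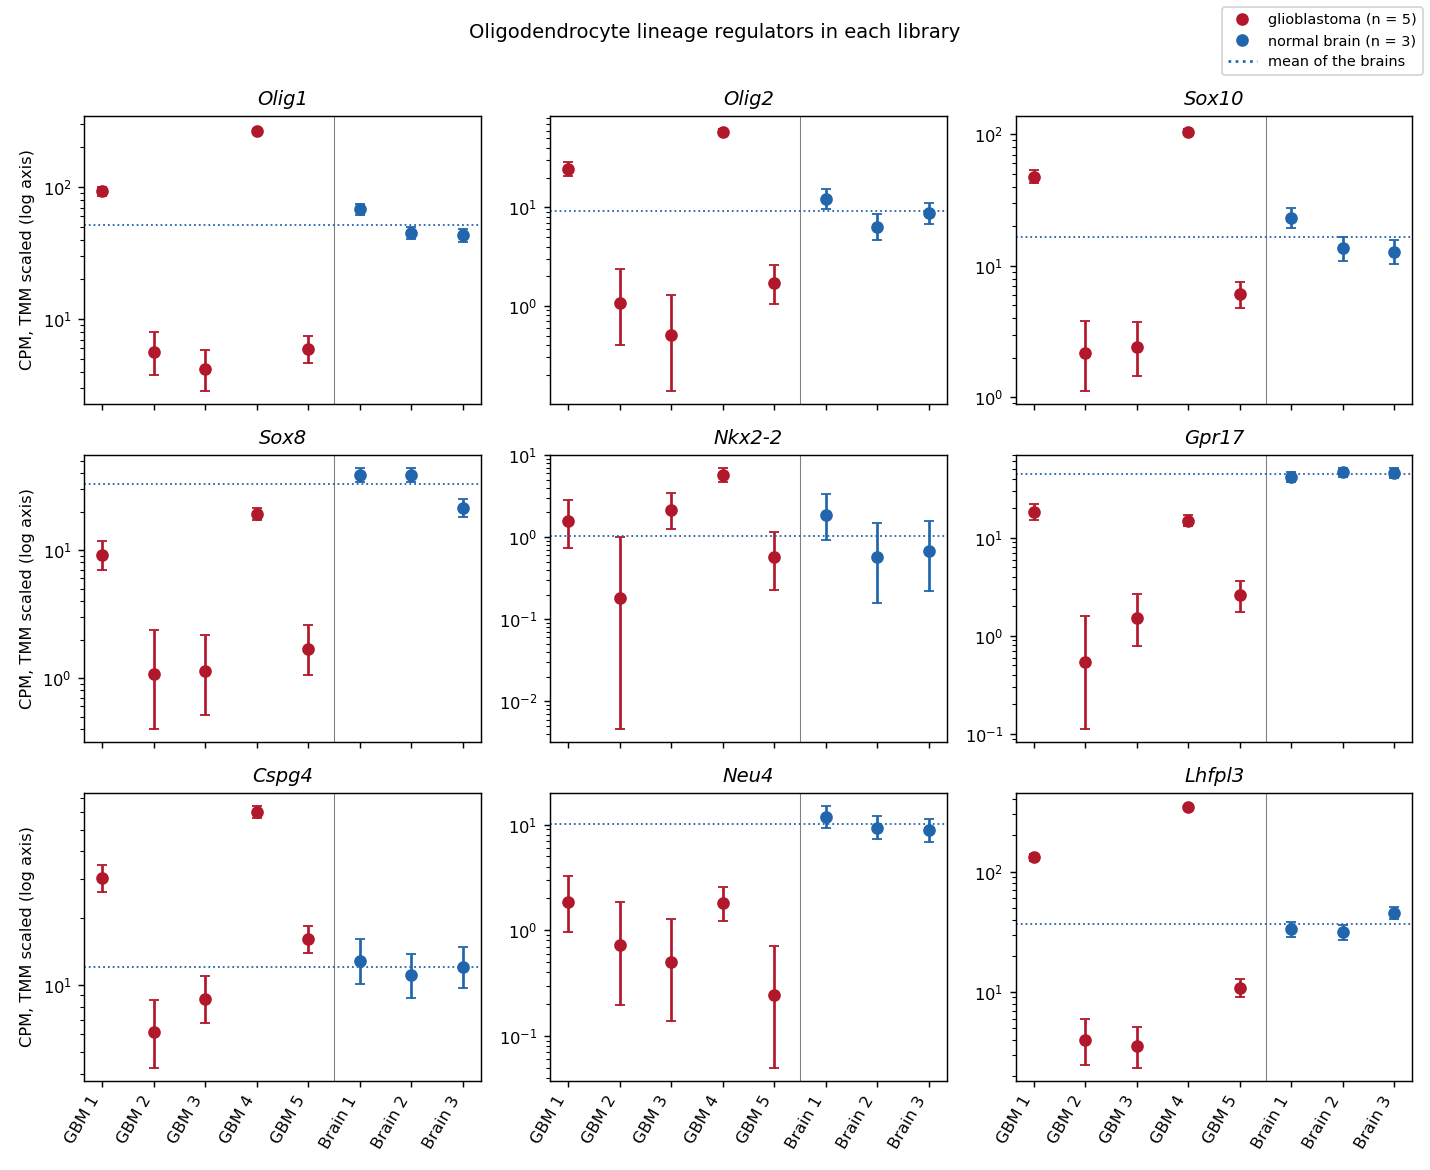
Level of each of the 9 genes in every library, in CPM with TMM scaling on a log axis, with 5 glioblastomas (GBM) left of 3 normal brains. Points are single libraries, bars are exact Poisson 95% counting intervals and the dotted line is the brain mean; Sox8, Gpr17 and Neu4 lie below the brains in all 5 tumours, and the other 6 genes lie on both sides.

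Sox8, Gpr17 and Neu4 were lower in each of the 5 tumours than in any brain. Sox8, a SoxE factor related to Sox10 with partly shared roles, stood at 9.15, 1.08, 1.13, 19.3 and 1.70 CPM in tumours 1 to 5, against 38.7, 38.5 and 21.3 CPM in brains 1 to 3. Tumour 4 came close to brain 3, and their counting intervals overlapped (17.3 to 21.5 CPM in tumour 4 and 18.1 to 24.9 CPM in brain 3). The log2 fold change was -2.30 ± 0.88 (SE; 95% interval -4.31 to -0.29), or -3.36 without tumour 4.

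Gpr17 stood at 18.5, 0.541, 1.51, 15.0 and 2.59 CPM in tumours 1 to 5, against 41.8, 46.5 and 45.8 CPM in brains 1 to 3. The brains lay within a ratio of 1.11 of each other, while tumour 1 exceeded tumour 2, with 3 fragments, by a ratio of 34.1 (95% counting interval 11.4 to 168). The log2 fold change was -2.54 ± 0.87 (SE; 95% interval -4.53 to -0.55). In the RefSeq table Gpr17 overlaps Lims2, which ran from 1.76 to 9.67 CPM in the tumours and from 5.59 to 7.78 CPM in the brains.

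Neu4, a sialidase gene, stood at 1.86, 0.722, 0.504, 1.81 and 0.242 CPM in tumours 1 to 5, against 11.8, 9.38 and 8.86 CPM in brains 1 to 3. No tumour reached 20% of the brain mean, the highest being tumour 1 at 18.6%. The log2 fold change was -3.25 ± 0.56 (SE; 95% interval -4.52 to -1.99). The related sialidase gene Neu2 was lower as well, at 0.313 ± 0.269 CPM (SD, n = 5) in the tumours and 3.91 ± 2.05 CPM (SD, n = 3) in the brains (log2 fold change -3.45 ± 0.66, SE; edgeR adjusted p = 0.0014), while the level of Neu1 was 58.4 ± 5.04 CPM in the tumours and 55.3 ± 1.67 CPM in the brains (log2 fold change 0.08 ± 0.12, edgeR adjusted p = 0.575). Neu2 rested on 18 fragments in the tumours and 76 in the brains. Neu3 was not called, at 3.57 ± 1.19 CPM in the tumours and 3.16 ± 0.294 CPM in the brains (log2 fold change 0.19 ± 0.34, edgeR adjusted p = 0.636).

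All 9 genes passed the filter on low counts. In the edgeR fit over 14641 genes, 3 of the 9 were lower at an adjusted p threshold of 0.05 (Sox8, Gpr17 and Neu4), against 33.9% of all tested genes called lower and 71.0% called in either direction, and all 5 tumours lay on 1 side of the 3 brains for the same 3 genes, against 70.6% of all tested genes. No gene of the 9 was called higher by edgeR, also at an unadjusted p threshold of 0.05 (0 of 9) and with DESeq2 (0 of 9), against 37.1% of all tested genes. Since the genes were chosen with these values known, the counts are a description and nothing is read from them. Their median log2 fold change was 0.95, against 0.06 over all tested genes, and it turned to -0.39 without tumour 4, to -0.13 without brain 1 and tumour 4, to -0.35 on log2(FPKM + 1) and to -0.90 on log2(FPKM + 0.1). With 1 library left out at a time, Neu4 was called in 8 of 8 fits, Gpr17 in 4 and Sox8 in 1, and the number called ranged from 1 to 3. Sox8 was called without tumour 4 and lost its call in each fit that left out another library, and Gpr17 lost it without tumour 5 or any 1 of the brains. The number called was 1 in those 4 fits.

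**Figure D2:**
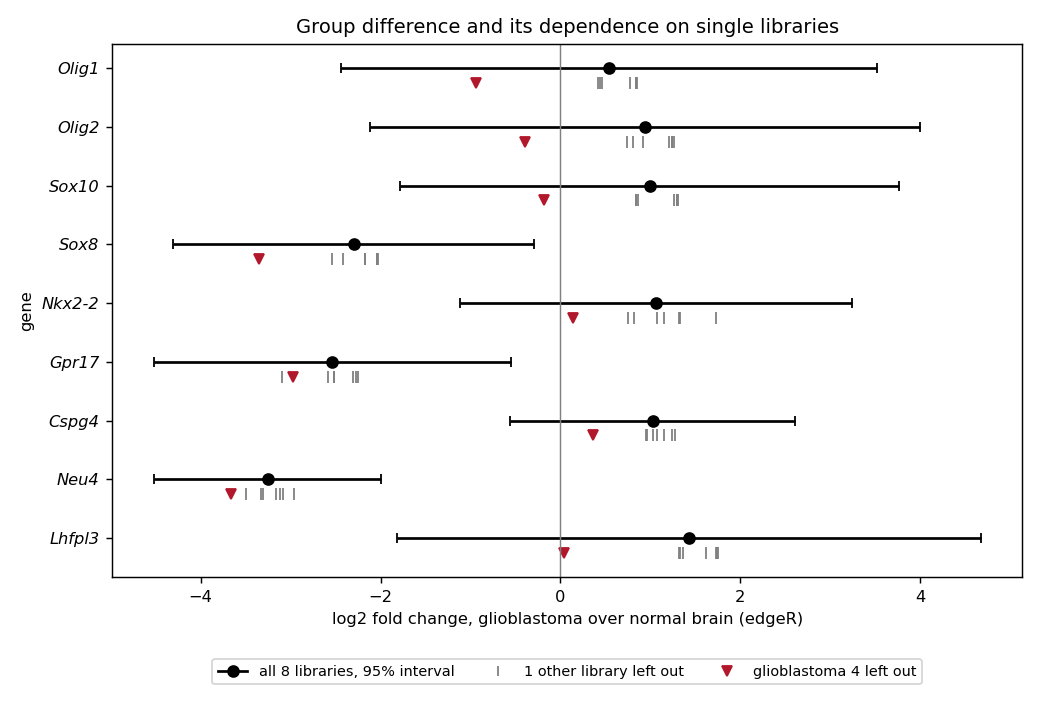
Log2 fold change of glioblastoma over normal brain for each gene from edgeR, with its 95% interval, and the values with 1 library left out (ticks, or a triangle for glioblastoma 4). Without tumour 4 the value moves left for all 9 genes and crosses 0 for Olig1, Olig2 and Sox10.

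Read by tumour, the division was between tumours 1 and 4 and the other 3. Tumour 4 lay above all brains for 6 of the 9 genes and below all brains for 3, and tumour 1 above for 5 and below for 3. Tumour 2 lay below all brains for 9 of 9, and tumours 3 and 5 for 8 each. The exceptions were Nkx2-2, above the brains in tumour 3, and Cspg4, above them in tumour 5. For Nkx2-2 the positions of tumours 2, 3 and 5 rest on 1, 17 and 7 fragments, with counting intervals that overlapped with those of brains. Over all tested genes the shares above every brain differed little between tumours, from 45.7% in tumour 2 to 47.4% in tumour 5, as did the shares below, from 43.7% in tumour 4 to 47.0% in tumour 2.

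The spread among tumours was large for these genes relative to the other genes. The SD of log2 CPM among the tumours was 2.98 for Lhfpl3, 2.79 for Olig2, 2.72 for Olig1 and 2.49 for Sox10, against a median of 0.38 over all tested genes. Only 20 of 14641 genes, Lhfpl3 included, had an SD at least that of Lhfpl3, and 54 had one at least that of Sox10. The smallest SD of the 9 was 0.94, for Neu4, which 11.1% of genes reached. Among the brains the SDs ran from 0.08 for Gpr17 to 0.75 for Nkx2-2, against a median of 0.15. Since the wide spread was known when the genes were chosen, these positions describe the genes and test nothing.

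**Figure D3:**
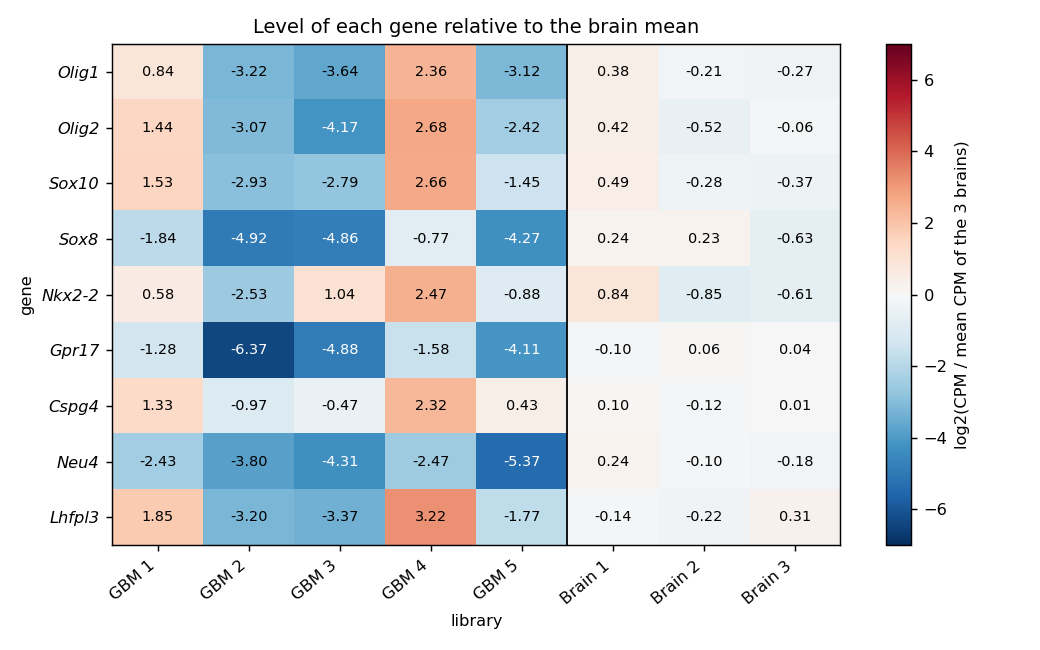
Log2 ratio of each library's CPM to the mean CPM of the 3 brains, with genes as rows and libraries as columns, glioblastomas (GBM) left of brains. Red marks levels above the brain mean and blue below it; tumour 4 reaches 3.22 for Lhfpl3, and tumour 2 is negative in every row.

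Levels of different genes were compared per length, as the authors' FPKM summed over a gene's accessions. In tumour 4 Olig1 and Lhfpl3 led with 125 and 116 FPKM, followed by Sox10 with 38.4 and Olig2 with 24.1 FPKM, and then by Cspg4 with 7.10, Sox8 with 6.37, Nkx2-2 with 3.32, Gpr17 with 2.77 and Neu4 with 0.387 FPKM. In the brains Olig1 led with 24.98 ± 6.50 FPKM (SD, n = 3), followed by Lhfpl3 with 12.7 ± 2.65, Sox8 with 11.1 ± 3.37, Gpr17 with 8.48 ± 0.513, Sox10 with 6.22 ± 2.15 and Olig2 with 3.85 ± 1.23 FPKM, and then by Neu4 with 2.21 ± 0.341, Cspg4 with 1.45 ± 0.102 and Nkx2-2 with 0.579 ± 0.444 FPKM. In that order Lhfpl3 and Sox8, and Sox8 and Gpr17, were closer than the larger of their SDs, and the other neighbours were not. Sox8 and Gpr17 stood above Sox10 in the brain means and below it in tumour 4.

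The ratio of 2 genes within a library does not depend on how a library was scaled. The CPM ratio of Sox8 to Sox10 was 0.192, 0.50, 0.474, 0.185 and 0.280 in tumours 1 to 5, against 1.67, 2.84 and 1.66 in brains 1 to 3. The ratio of Gpr17 to Sox10 was 0.388, 0.250, 0.632, 0.143 and 0.427 in the tumours, against 1.80, 3.43 and 3.57 in the brains. For both ratios the groups did not overlap, and the lowest ratio of Gpr17 was in tumour 4, the tumour with the highest Sox10, while tumour 1 lay between tumours 2 and 5. The ratio of Neu4 to Sox10 was 0.0391, 0.333, 0.211, 0.0173 and 0.0400 in the tumours, against 0.511, 0.691 and 0.691 in the brains, with 12 or fewer fragments of Neu4 in 4 of the 5 tumours.

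Among genes that lay on both sides of the brains, some ratios overlapped between the groups and others did not. The CPM ratio of Olig2 to Olig1 was 0.265, 0.194, 0.121, 0.219 and 0.284 in tumours 1 to 5, against 0.180, 0.141 and 0.203 in brains 1 to 3, while the levels of Olig1 and Olig2 differed between tumours by the ratios of 64.1 and 116 given above. The ratio of Lhfpl3 to Sox10 lay between 1.47 and 3.28 in the tumours and between 1.43 and 3.53 in the brains. Both of these ratios overlapped between the groups. The ratio of Olig1 to Sox10 was 1.95, 2.58, 1.74, 2.55 and 0.987 in tumours 1 to 5, against 2.93, 3.32 and 3.36 in brains 1 to 3, and was lower in every tumour than in every brain. The margin was small, and the ratio in tumour 2 rests on 31 fragments of Olig1 and 12 of Sox10. The ratio of Cspg4 to Sox10 was 0.635, 2.83, 3.63, 0.578 and 2.67 in tumours 1 to 5, against 0.555, 0.819 and 0.947 in brains 1 to 3. Tumours 1 and 4 lay within the range of the brains and the other 3 above it. The ratios were chosen after the levels had been seen and are given without a test.

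**Figure D4:**
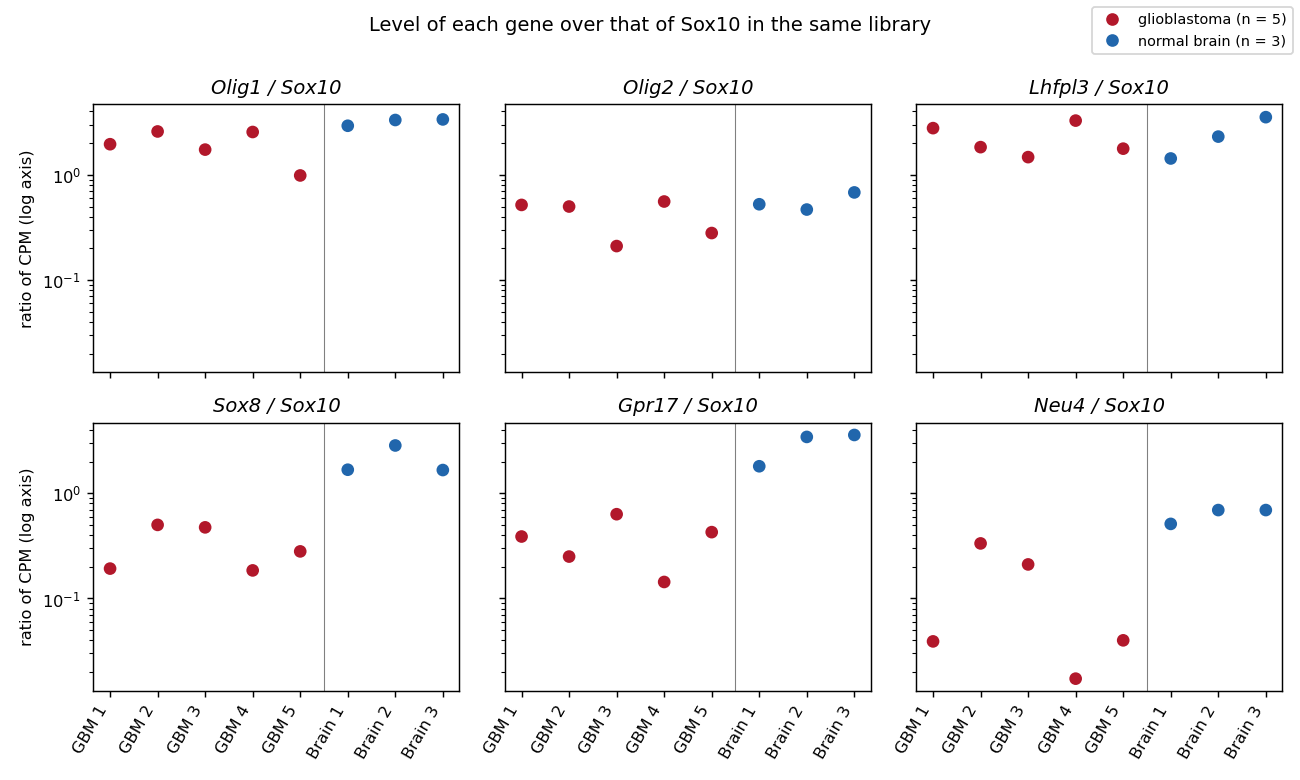
CPM of 6 genes divided by the CPM of Sox10 in the same library, on a log axis shared by all panels, with 5 glioblastomas (GBM) left of 3 brains. The ratios of Sox8, Gpr17, Neu4 and, by a smaller margin, Olig1 are lower in every tumour than in every brain, and those of Olig2 and Lhfpl3 overlap.

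The likeness of 2 profiles was measured as the root mean square (RMS) difference of log2 CPM over the 8 libraries, each gene centred on its own mean. Among the 9 genes the closest pair was Olig1 and Olig2, with 0.33, followed by Olig2 and Lhfpl3 with 0.38 and Olig2 and Sox10 with 0.42. Sox8 was closest to Gpr17, with 0.59, and lay 1.40 from its paralogue Sox10. Of 13637 other genes with at least 5 CPM in 1 library, whose median distance from Olig2 was 2.16, the 5 closest to Olig2 were E130114P18Rik, Pcdh15, Rasgef1c, Sox6 and Pcdhb9, at 0.46, 0.48, 0.48, 0.50 and 0.50. Sox6 encodes a transcription factor that keeps precursors immature, and Pcdh15 a protocadherin found in precursors. The closest to Olig1 were E130114P18Rik (0.36), Rasgef1c (0.37) and Sorcs1 (0.39), those to Sox10 were Syt4 (0.46), Pcdh15 (0.49) and Sox6 (0.50), and those to Lhfpl3 were Matn4 (0.39), Pcdh15 (0.46) and Clic5 (0.54). Syt4, a synaptotagmin gene, stood at 714, 24.2, 46.9, 1462 and 117 CPM in tumours 1 to 5, against 342, 366 and 369 CPM in the brains, the same division of tumours as Sox10.

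Closest to Sox8 were Apba2, Ptchd4 and the neuronal RNA-binding protein gene Elavl4, at 0.30, 0.30 and 0.31, and closest to Gpr17 were Trim9, Nxph1 and Vgf, the last a secreted neuronal peptide precursor, at 0.42, 0.45 and 0.45. Closest to Neu4 were Jazf1 (0.25), Mir124-2hg (0.30) and Rbm24 (0.31), to Cspg4 Gm266 (0.25), Fam181b (0.28) and Frem1 (0.29), and to Nkx2-2 Arhgef37 (0.53), Pfkfb3 (0.55) and St3gal6 (0.56).

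Other genes of the lineage gave a mixed picture. Of 57 genes in 6 lists, 52 were tested, of which edgeR called 13 higher and 17 lower in the tumours, against 37.1% and 33.9% of all tested genes. Their median log2 fold change was -0.04. Tumours 4 and 1 were the 2 highest tumours for 33 of the 52 and for 8 of the 9 regulators, against 22.1% of all tested genes. The 9 regulators and the lists were chosen with results of these data known, so these counts are a description and nothing is read from them.

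Pdgfra, the receptor through which PDGF drives precursor division, was higher in all 5 tumours than in any brain. It stood at 790, 133, 241, 1338 and 359 CPM in tumours 1 to 5, against 94.9, 116 and 124 CPM in brains 1 to 3 (log2 fold change 2.36 ± 0.73, SE; edgeR adjusted p = 0.0174). Tumours 1 and 4 were again the highest, although tumours 2, 3 and 5, which were low in Olig2 and Sox10, still exceeded the brains in Pdgfra. For tumour 2 the margin was narrow, at 133 CPM against 124 CPM in brain 3. The call was lost without brain 1 (edgeR adjusted p = 0.0618), without brain 2 (0.0538), without brain 1 and tumour 4 together (0.0576) and with single accessions (0.0976).

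Of 13 precursor surface and matrix genes, Pdgfra and Vcan were higher and 3, Dscam, Luzp2 and Tnr, lower, and the median log2 fold change was -0.05. Vcan, a large chondroitin sulphate proteoglycan, stood at 429, 757, 466, 211 and 897 CPM in tumours 1 to 5, against 31.5, 35.8 and 33.5 CPM in the brains (log2 fold change 4.04 ± 0.49, SE; edgeR adjusted p = 0.000108). Its tumour order was unlike that of Olig2, with tumour 4 the lowest. Dscam, an adhesion molecule gene, and Luzp2 were lower by -3.22 ± 0.87 and -3.13 ± 0.64 on the log2 scale (edgeR adjusted p = 0.00923 and 0.00209). Matn4, a matrilin gene, did not pass and had an SD of log2 CPM of 3.11 among the tumours, at 18.8, 0.361, 0.378, 70.0 and 1.45 CPM in tumours 1 to 5, against 4.74, 6.06 and 3.41 CPM in the brains.

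Of 11 transcription factors of specification and precursors, 3 were higher and 4 lower, with a median log2 fold change of -0.47. Prrx1 and Tcf12, the second a bHLH E-protein with which Olig factors pair, had log2 fold changes of 5.04 ± 0.24 and 2.78 ± 0.19 (SE; edgeR adjusted p = 7.7e-07 and 4.0e-06). Tcf12 averaged 446 ± 80.0 CPM (SD, n = 5) among the tumours and 64.7 ± 4.88 CPM (SD, n = 3) among the brains. Tumour 1 was its highest tumour with 577 CPM, and tumour 4, with 384 CPM, was close to the lowest with 380 CPM. Hes5, a Notch target that holds precursors back, and Id4, an inhibitor of bHLH factors, had -3.15 ± 0.96 and -1.87 ± 0.34 (edgeR adjusted p = 0.0161 and 0.00118). Hes5 rested on 30 fragments in the tumours and lost its call without brain 3 (edgeR adjusted p = 0.0753) and with single accessions (0.0610). Sox6 stood at 68.7, 5.23, 3.65, 121 and 8.16 CPM in tumours 1 to 5, against 34.8, 41.7 and 38.0 CPM in the brains, and did not pass.

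Of 8 transcription factors of differentiation, 4 were lower, with a median log2 fold change of -1.22. St18 and Zfp536 had log2 fold changes of -3.77 ± 0.28 and -3.04 ± 0.57 (SE; edgeR adjusted p = 6.7e-06 and 0.00133), and the other lower genes were Myrf, the factor that switches on myelin genes, at 2.93 ± 1.26 CPM (SD, n = 5) in the tumours and 14.8 ± 6.68 CPM (SD, n = 3) in the brains, and Nkx6-2. St18 did not exceed 3.57 CPM in any tumour, tumours 1 and 4 included, against at least 28.9 CPM in each brain, and lost its call with single accessions (edgeR adjusted p = 0.110). Of the factors not called, Myt1, Zfp488 and Zfp24 stood above every brain in tumours 1 and 4, and Tcf7l2 lay within the brains' range there. Myt1 stood at 45.8 and 76.9 CPM in tumours 1 and 4, against 23.3 to 28.8 CPM in the brains. Zfp488 stood at 3.72 and 8.62 CPM, against 1.91 to 2.37 CPM. Of 6 genes of newly formed oligodendrocytes, Rras2, Tns3 and Itpr2 were higher and Enpp6 lower (-2.23 ± 0.61; edgeR adjusted p = 0.00993, or 0.0652 without brain 1), with 0.62 as the list's median log2 fold change. Rras2 and Tns3 had log2 fold changes of 1.49 ± 0.31 and 1.46 ± 0.22 (edgeR adjusted p = 0.00227 and 0.00032).

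Of 7 genes of signals to the lineage, 5 were tested, and 2 were higher and 2 lower, with a median log2 fold change of 0.90. Jag1, a Notch ligand gene, and Pdgfa, a ligand of the Pdgfra receptor, had log2 fold changes of 5.82 ± 0.52 and 1.06 ± 0.20 (SE; edgeR adjusted p = 1.8e-05 and 0.00127). Lingo1, an inhibitor of differentiation also found in neurons, and Ptch1, the hedgehog receptor, had -5.35 ± 0.35 and -1.38 ± 0.28 (edgeR adjusted p = 3.8e-06 and 0.00202). Shh and Gli1 had too few fragments to test. Of 12 paralogues of the 9 genes, 9 were tested, with 3 higher and 3 lower and a median log2 fold change of 0.08. Sox9, the third SoxE gene, was higher, at 19.5 ± 5.72 CPM (SD, n = 5) in the tumours and 5.09 ± 0.755 CPM (SD, n = 3) in the brains (log2 fold change 1.94 ± 0.29, SE; edgeR adjusted p = 0.00035), and in the family of Lhfpl3 the log2 fold change was 1.61 ± 0.22 for Lhfp, -4.16 ± 0.62 for Lhfpl5 and -3.96 ± 0.58 for Lhfpl4 (edgeR adjusted p = 0.000203, 0.000318 and 0.000305). Olig3 had 0 fragments in all 8 libraries.

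**Figure D5:**
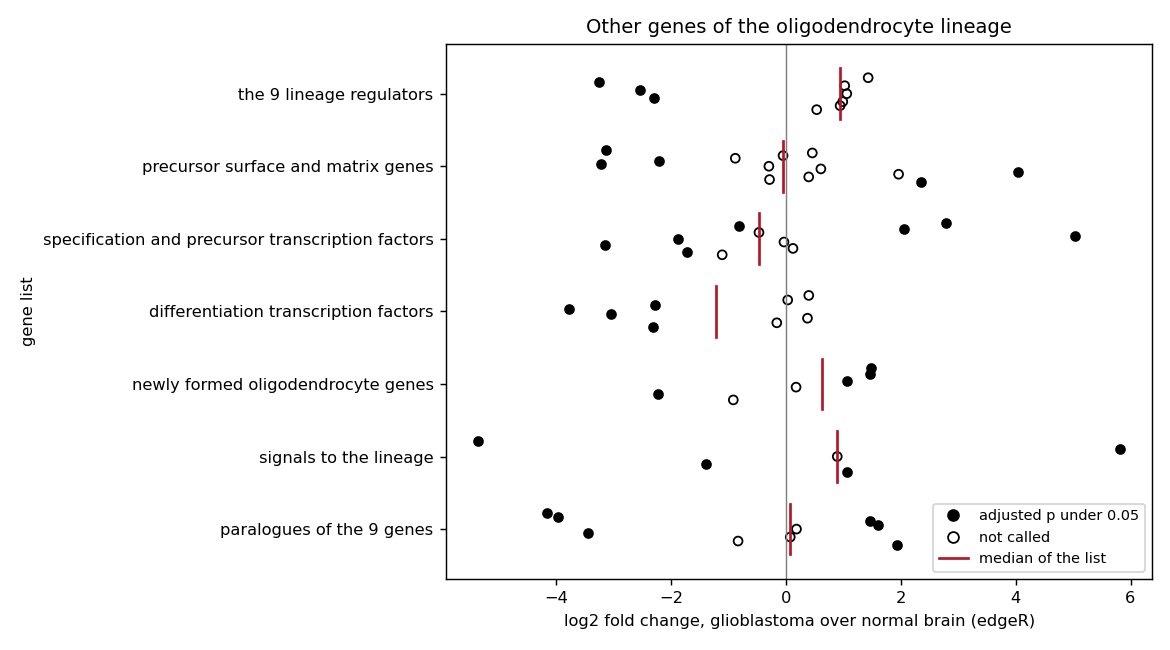
Log2 fold change of glioblastoma over normal brain (edgeR) for the 9 regulators and for the tested genes of 6 lists of other lineage genes. Filled points passed the adjusted p threshold of 0.05, open points did not, and the red line is the median of a list; in each list but that of differentiation factors, other genes than the 9 were called in both directions.

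Markers of other cell types moved with the tumours as well. Of 14 markers of myelinating oligodendrocytes, 12 were lower, and their summed level was 741, 624, 338, 1112 and 319 CPM in tumours 1 to 5, against 7171, 3695 and 3757 CPM in brains 1 to 3. The sum was highest in tumours 4 and 1, yet in tumour 4 it stayed below every brain, where Olig1, Olig2 and Sox10 stood above every brain. Brain 1, with the highest myelin sum, also had the highest level of the 3 brains for each of the 9 genes except Gpr17 and Lhfpl3. Of 10 astrocyte markers, 7 were lower, and they summed to 1564, 1262, 990, 2774 and 1233 CPM in the tumours, against between 5983 and 6485 CPM in the brains. Of 12 neuronal markers, 9 were lower, with the lowest tumour sum in tumour 4. The tumour sums leaned on markers that were not called. Nefl stood at 440 CPM in tumour 2 and 107 CPM in tumour 4, and Stmn2 at 349 and 60.4 CPM. Among the lower markers, Snap25 was lowest in tumour 4 (31.3 CPM), while Tubb3 and Gad1 were highest there (278 and 23.1 CPM).

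Of 10 markers of microglia and macrophages, 8 were higher and 1 lower, and they summed to 1135, 1653, 1881, 918 and 1480 CPM in tumours 1 to 5, against between 265 and 275 CPM in the brains. The 2 tumours with the highest Olig2 had the 2 lowest sums. The single markers did not all follow the sum. Msr1 was lowest in tumours 4 and 1 (45.3 and 105 CPM), whereas Cx3cr1, which was not called, was highest there (55.8 and 50.7 CPM). P2ry12, the lower marker, stood at 26.1 CPM in tumour 4 and 19.5 CPM in tumour 1, its lowest tumour. No marker of the myelin, astrocyte, neuron or microglia and macrophage lists was at 0 throughout a group. The 3 tested markers of Schwann cells, cells that also express Sox10, were all higher, with sums of 70.3, 25.8, 25.1, 200.4 and 42.6 CPM in tumours 1 to 5, against between 2.86 and 8.37 CPM in the brains. The part of these cell types in the levels of the 9 genes was not tested.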

How the data were processed

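The 5 glioblastomas and 3 normal brains of mice were sequenced from TruSeq RNA libraries, per the labels' protocols. The authors used STAR 2.3.0e and Cuffdiff 2.1.1 on mm9, per the submitters' processing notes, without stated settings. The authors deposited estimated counts of fragments per RefSeq accession and library, and FPKM values scaled by 1 factor per library, per the file headers. Library names in the file match the sample titles.

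Here, estimated counts of 30967 accessions were summed per gene and rounded, giving 23523 features; 30474 accessions were named from a RefSeq table (GRCm38) and 178 from GENCODE, and the 315 others held 0.507% of fragments. Dividing fragments between accessions of a gene can shift single accessions but hardly their sum. The test was edgeR 4.0.16 (TMM, default filter, robust quasi-likelihood), with Benjamini-Hochberg adjustment over 14641 genes. Standard errors derive from the F statistic, 95% intervals from the test's own degrees of freedom, and a prior count of 2 entered log2 CPM. Ratios of libraries have exact binomial intervals. The script was tested on simulated data. Library totals of 5490351 to 15564280 fragments set the counting error.

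The 9 genes, the lists and the tests were chosen with earlier results of these data known. Named beside the 9 genes were Pdgfra and, for each list, the 2 called genes with the largest change in each direction. The 3 genes (5 for Olig2) nearest in profile to each of the 9 were named too. Neu1, Neu2, Neu3, Myrf, Nkx6-2, Myt1, Zfp488, Zfp24, Tcf7l2, Itpr2, Tnr, Lhfpl2, Olig3, Shh, Gli1 and single cell type markers were named after their values were seen. Alternatives were DESeq2 1.42.0, RLE factors, library size only, no filter, at least 5 CPM in 3 libraries, limma 3.58.1 on log2(FPKM + 1) and log2(FPKM + 0.1), each library left out, brain 1 and tumour 4 both left out, and single accessions. Calculations used R 4.3.3, pandas 2.3.3 and matplotlib 3.10.9.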

Additional observations from a re-analysis of the deposited data

Results flagged for a closer look

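Id4 was the 1 gene of 54 named genes with a tumour far from the other tumours. Its level in tumour 4 was 19.6 CPM, against 7.18 to 8.32 CPM in the other 4, and the gap to the nearest of them was 0.855 of the whole range of log2 CPM, above the 95% critical value of Dixon's test for 5 samples. Tumour 4 was still below the brains, which stood between 37.0 and 37.2 CPM. Chance flags about 1 in 20 groups, so 1 of 54 is no sign of a pattern.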

How the results depend on the processing

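No paired analysis was possible because the replicate numbers were given in accession order and pair no samples. The number of the 9 regulators called ranged from 1 to 3 with 1 library left out and was 1 of 8 tested with single accessions, and the cause was not tested. The count over all genes ranged from 9182 to 11206 and that of other lineage genes from 24 to 35 over all alternatives. Scaling by library size alone raised the median log2 fold change of all genes by 0.14, to 0.20. Of 911 single-gene values under an alternative, 817 kept direction and side of the threshold, 33 lost and 20 gained a call, and 41 turned sign; every value that turned belonged to a gene that was not called. On log2(FPKM + 1) those values were -1.09 for Olig1, -0.29 for Olig2, -0.21 for Sox10, -0.35 for Lhfpl3, -0.68 for E130114P18Rik, -0.94 for Rasgef1c, -0.47 for Pcdh15, -0.59 for Sox6, -0.92 for Pcdhb9 and -1.03 for Syt4. On log2(FPKM + 0.1) they were -1.31 for Olig1, -0.90 for Olig2, -0.50 for Sox10, -0.60 for Lhfpl3, -1.21 for E130114P18Rik, -1.40 for Rasgef1c, -1.02 for Pcdh15, -1.08 for Sox6, -1.40 for Pcdhb9, -1.09 for Syt4 and -0.35 for Matn4. Without brain 1 and tumour 4 they were -0.70 for Olig1, -0.13 for Olig2, -0.028 for Lhfpl3, -0.99 for E130114P18Rik, -1.52 for Rasgef1c, -0.77 for Pcdh15, -0.90 for Sox6, -1.28 for Pcdhb9 and -0.70 for Syt4. With 1 library left out, the ranges were -0.94 to 0.85 for Olig1, -0.39 to 1.26 for Olig2, -0.18 to 1.31 for Sox10, -1.02 to 0.65 for E130114P18Rik, -1.51 to 0.63 for Rasgef1c, -0.68 to 0.76 for Pcdh15, -0.84 to 0.42 for Sox6, -1.35 to 0.37 for Pcdhb9 and -0.66 to 0.71 for Syt4. FPKM fits average the tumours on the log scale, where 3 low tumours outweigh 2 high ones. Levels under about 1 CPM in a tumour rest on a few fragments, and Nkx2-2, Olig2, Neu4 and Gpr17 are limited there.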
